A study of Mus musculus with 12 samples.

Results

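The genes described here are 6 genes of arginine use: Arg1, Arg2, Nos2, Ass1, Slc7a2 and Odc1. They were chosen by name as the arginases, the inducible nitric oxide synthase and their partners, out of 18574 genes in the CD45 tables and 19369 in the Total tables. Their levels were followed across the annotated cell classes of 6 mouse tumours and across single macrophages. The tumours were grown from 4T1, a mouse mammary carcinoma line used as a model of triple-negative breast cancer. Each of the clones E, EM1, EM2, EM3 and M, which were each derived from a single cell, gave 1 tumour, and the parental line gave 1. All were implanted in the mammary fat pad of female BALB/c mice with an intact immune system, aged 9 to 11 weeks, and the labels give no further treatment or allele. The design text describes the clones as epithelial, intermediate and mesenchymal, and the labels do not give the state of each clone beyond its name. Every tumour gave a Total library and a library enriched for CD45, the surface antigen of leukocytes, with magnetic beads.

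Arginine stands at a branch point of macrophage metabolism. Cationic amino acid transporters such as the one encoded by Slc7a2 bring it into the cell. Nos2 encodes the inducible synthase that turns arginine into nitric oxide and citrulline, and Ass1 encodes the argininosuccinate synthase that takes citrulline on the way back to arginine. The arginases, cytosolic Arg1 and mitochondrial Arg2, split arginine into urea and ornithine, and Odc1 encodes ornithine decarboxylase, which starts polyamine synthesis from ornithine. Arg1 and Nos2 are commonly used as opposite markers of macrophage activation, and arginase of myeloid cells can deprive T cells of arginine. In the GRCm38 build, by the GENCODE vM21 annotation, Arg1 lies at chr10:24915221-24927484 on the minus strand. The others lie on the plus strand: Arg2 at chr12:79130777-79156301, Nos2 at chr11:78920787-78960254, Ass1 at chr2:31470207-31520672, Slc7a2 at chr8:40862396-40922308 and Odc1 at chr12:17544794-17551505.

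The 12 libraries held 28083101 to 122055131 UMIs (unique molecular identifiers, each marking 1 captured molecule) in 6709 to 13467 cells. Levels are CPM, the UMIs of a gene relative to the UMI total of the cells summed, by class and library. With 1 tumour per group there was no replicate tumour and no test between tumours, and every interval is a 95% interval that covers counting error only. The first 16 bases of the cell barcodes were shared by 12.2% to 19.1% of cells between the libraries of a tumour, of E with EM3 and of EM1 with EM2, and by 0.686% to 1.91% between other libraries. E and EM3 thus share a barcode set, as do EM1 with EM2, while M and the parental tumour each stand alone. A difference between M and E, or between any tumours of different sets, can therefore not be told apart from a difference between barcode sets. EM3 and E can be compared within 1 set, as can EM1 and EM2. Macrophage markers led the annotated macrophages, with a summed level of 36489 to 55694 CPM for 9 genes in the CD45 libraries. Markers of fibroblasts, NK cells and mast cells summed to at most 4.97 CPM there, and 8 granulocyte markers to 991 to 1940 CPM, against 140349 to 209670 in granulocytes. In the same macrophages plasma cell markers summed to 644 to 1379 CPM, those of plasmacytoid dendritic cells to 379 to 612 and endothelial markers to 95.8 to 187.

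In the CD45 libraries, Arg1 was highest in macrophages in every tumour. Macrophages held 63.1% to 79.9% of the UMIs of all genes and gave 87.0% to 94.4% of those of Arg1. Its level in macrophages was 4029 CPM in EM3, 3851 in E, 2562 in the parental tumour, 1637 in M, 1589 in EM2 and 1297 in EM1. E and EM3 were high, the parental tumour lay between, and EM1, EM2 and M were low. Cells annotated as T/Myeloid Hybrid, which numbered at least 50 in 3 tumours, came next in E (3369 CPM in 78 cells) and EM1 (907 CPM in 71 cells) and behind other myeloid cells in EM3 (2627 CPM in 86 cells). Other myeloid cells held 597 to 2727 CPM and dendritic cells 197 to 1470 CPM, in both cases with E and EM3 above the other tumours. Macrophage markers summed to 5506 to 25087 CPM in those dendritic cells, and their part in its Arg1 was not tested. Granulocytes, in which arginase is often reported in tumour-bearing mice, held 73.2 to 520 CPM. T cells, which are not known for Arg1, held 64.4 to 392 CPM, so the ranges over tumours overlapped. Within each tumour granulocytes were above T cells. The levels were 520 against 392 CPM in EM3, 467 against 262 in E and 389 against 281 in the parental tumour. They were closer in EM2 (137 against 106), M (103 against 80.5) and EM1 (73.2 against 64.4).

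The Arg1 of granulocytes was set beside transcripts that define macrophages, each as a share of its level in macrophages. In the CD45 libraries the share for Arg1 was 15.2% of the macrophage level in the parental tumour, 12.9% in EM3, 12.1% in E, 8.60% in EM2, 6.28% in M and 5.65% in EM1. The same share was 6.51% to 17.9% for the complement gene C1qa and 4.26% to 12.2% for the lipid carrier gene Apoe. In the CD45 libraries of all 6 tumours the share for Arg1 lay between those of C1qa and Apoe, in granulocytes and in T cells alike. In granulocytes of the Total libraries it lay between them in E, EM2 and EM3, and above both in M (5.53% beside 5.10% and 3.63%) and in the parental tumour (6.81% beside 5.82% and 4.01%). In EM1 it lay below both, at 1.27% beside 2.73% and 2.14%. The highest level in tumour cells, 85.2 CPM in E, was 2.67% of the macrophage level, beside 3.33% for C1qa and 3.16% for Apoe. In tumour cells of the other 5 the share was 0.307% to 1.41%, above both genes in EM2, M and the parental tumour and between them in EM1 and EM3. The part of free RNA in the Arg1 of granulocytes, T cells and tumour cells was not tested.

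Arg2 showed the other pattern, with the highest level in granulocytes. These held 1215 CPM in E, 1103 in the parental tumour, 1043 in EM3, 1007 in M, 1005 in EM1 and 920 in EM2. Macrophages held 1034 in E, 799 in the parental tumour, 769 in EM3, 720 in EM2, 619 in EM1 and 503 in M. Granulocytes were thus above macrophages in each of the 6 tumours, with counting intervals that did not overlap, and at 118% to 200.2% of the macrophage level. In the Total libraries granulocytes were again above macrophages in 6 of 6 tumours, at 625 to 862 against 417 to 798 CPM, though in EM2 the intervals overlapped. T cells held 24.1 to 89.6 CPM. Granulocytes carry little RNA in these libraries, a median of 690 to 1220 UMIs per cell against 5134 to 7676 in macrophages. Per cell, the order turned: 0.866 to 1.59 Arg2 UMIs in a granulocyte and 3.46 to 7.07 in a macrophage. After thinning each cell to 500 UMIs, 37.0% to 44.9% of granulocytes and 24.2% to 39.8% of macrophages had an Arg2 UMI, beside 1.04% to 4.92% of T cells. Without thinning these shares were 52.7% to 70.2%, 87.4% to 95.5% and 3.79% to 15.9%.

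Nos2 was also higher in granulocytes than in macrophages on the CPM scale. Granulocytes held 159 CPM in E, 114 in EM3, 102 in EM1, 93.1 in the parental tumour, 84.9 in M and 60.9 in EM2. In macrophages the level was 34.8 CPM in E, 17.5 in EM1, 14.4 in EM3, 12.2 in the parental tumour, 11.0 in EM2 and 6.99 in M. No tumour's granulocytes overlapped with its macrophages, and E was the highest tumour in both classes. T cells held 1.03 to 6.03 CPM. Per cell, granulocytes held 0.0573 to 0.208 Nos2 UMIs and macrophages 0.0547 to 0.238. The granulocytes were higher on this scale in M, at 0.0979 against 0.0547, and in EM3, at 0.165 against 0.118, and lower in E, at 0.208 against 0.238. At 500 UMIs per cell, 2.47% to 5.02% of granulocytes, 0.355% to 1.76% of macrophages and 0.0341% to 0.445% of T cells had a Nos2 UMI. The macrophages of M, at 0.355%, were not above their T cells at 0.445% on this measure. Unthinned, the shares were 4.13% to 9.21% in granulocytes, 2.41% to 8.09% in macrophages and 0.132% to 0.832% in T cells. Thinning left out 89 to 364 granulocytes and 12 to 90 T cells per library, with 0 to 3 macrophages. Of all Nos2 UMIs in the CD45 library of M, 69.9% came from granulocytes and 26.2% from macrophages, and in the other tumours macrophages gave 51.1% to 76.2%. Of the UMIs of all genes, granulocytes held 15.7% and macrophages 71.5% in M, and macrophages held 63.1% to 79.9% in the others.

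Slc7a2, the arginine transporter gene, was concentrated in macrophages like Arg1. The macrophages held 256 CPM in E, 119 in EM3, 60.3 in EM1, 58.7 in the parental tumour, 55.1 in EM2 and 40.7 in M. E stood above all others and EM3 second, and the remaining 4 lay close together. In E the 78 T/Myeloid Hybrid cells held 301 CPM (255 to 352), an interval that holds the macrophage value of 256, and in the other 5 tumours macrophages were the highest class. Macrophages gave 86.7% to 94.96% of its UMIs in the CD45 libraries, beside 63.1% to 79.9% of the UMIs of all genes. T cells held 2.78 to 22.0 CPM. In the Total libraries fibroblasts held 186 CPM in E and 54.0 to 89.7 in the other 5 tumours. Endothelial cells held 88.4 CPM in E, from 26 UMIs, and 1.93 to 11.1 in the 3 other tumours with at least 50 of them. Fibroblasts also held 588 CPM of Arg1 in E, 329 in EM3 and 2.93 to 73.4 in the other 4. Macrophage markers summed to 773 to 8225 CPM in fibroblasts of these libraries, and their part in the Arg1 and Slc7a2 of fibroblasts was not tested. Fibroblasts of EM1, EM2, M and the parental tumour were above or close to their macrophages, at 88.0 against 58.7, 83.5 against 50.5, 76.3 against 38.8 and 54.0 against 59.8 CPM. Tumour cells held 0.883 to 18.6 CPM.

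Ass1 was highest in dendritic cells of the CD45 libraries, and not in macrophages. Dendritic cells held 567 CPM in E, 531 in EM2, 480 in M, 396 in EM1, 387 in the parental tumour and 380 in EM3. Macrophages held 290 in E, 178 in EM2, 150 in EM1, 131 in EM3, 114 in the parental tumour and 72.3 in M. Granulocytes held 6.18 to 53.6 CPM. Dendritic cells were above macrophages in every tumour without overlap. T cells, at 216 to 385 CPM, were above macrophages in 5 of 6 tumours, the exception being E.

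**Figure D1:**
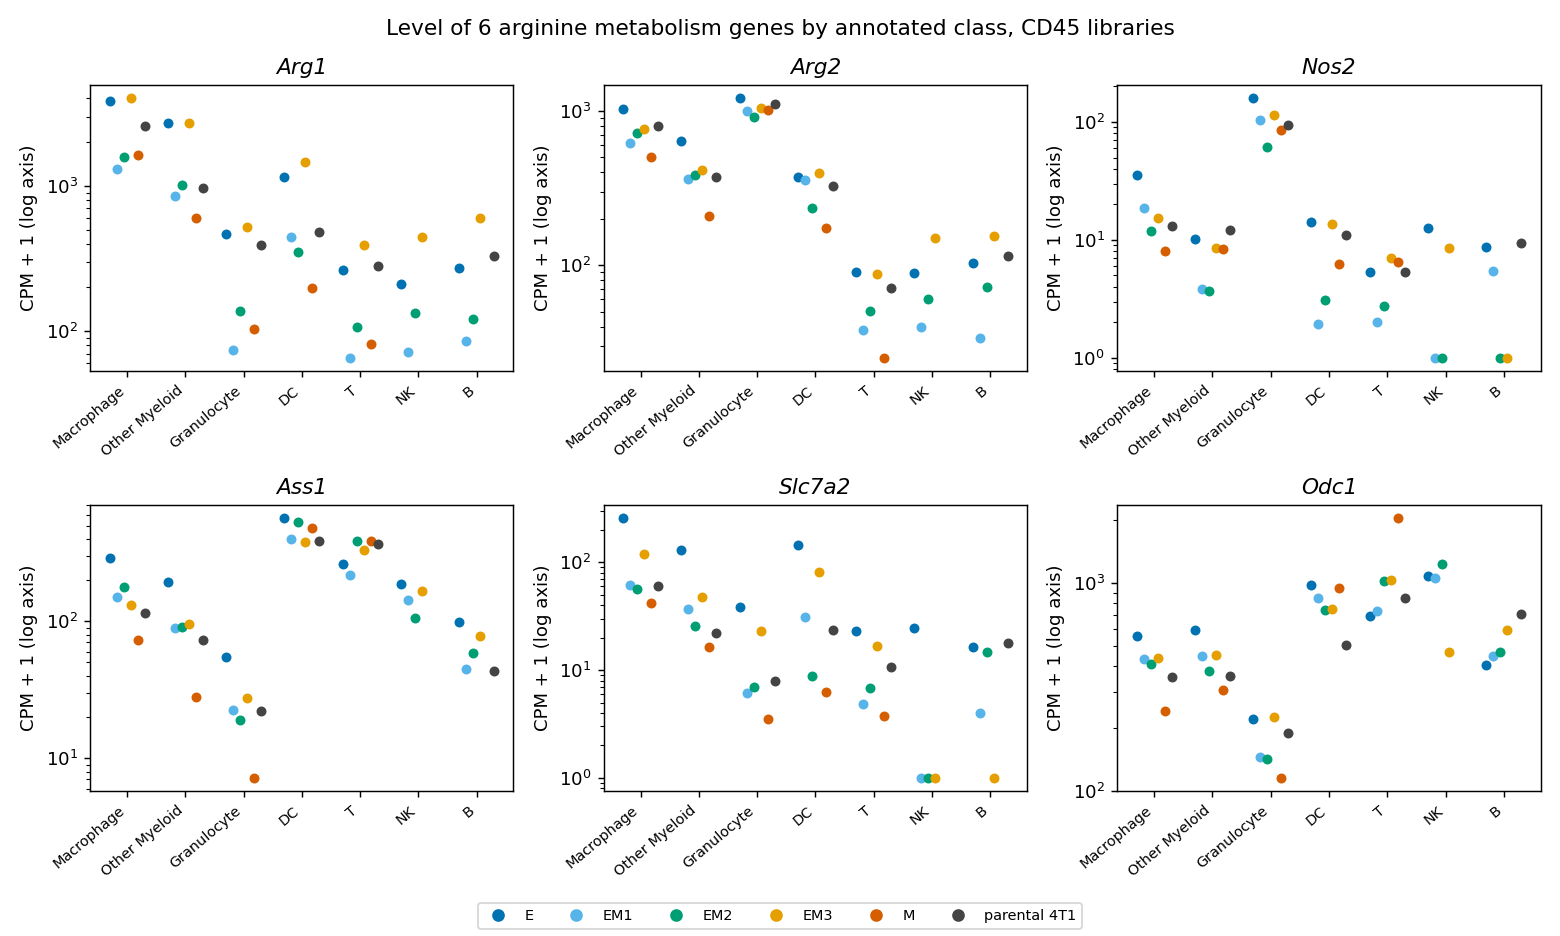
Level of the 6 genes in the annotated classes of the CD45 libraries, as CPM plus 1 on a log axis, with 1 point per tumour and class of at least 50 cells. T/Myeloid Hybrid cells, which held 301 CPM of Slc7a2 in E against 256 in macrophages, are not drawn. Among the classes drawn, Arg1 and Slc7a2 peak in macrophages. Arg2 and Nos2 peak in granulocytes (920 to 1215 and 60.9 to 159 CPM), and Ass1 in dendritic cells (380 to 567 CPM).

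Among T cells, Ass1 was highest in the subtype that the authors annotated as Foxp3+ Cd4+, where Foxp3 is the defining factor of regulatory T cells. These cells held 961 CPM in EM2, 873 in the parental tumour, 833 in EM3, 791 in E, 711 in EM1 and 689 in M. The Cd44+ Cd4+ subtype held 296 to 581 CPM, Cd44- Cd4+ cells 182 to 360, and Gzmb+ Cd8+ cells, the cytotoxic subtype, 62.1 to 123 in 5 tumours. Dividing cells annotated as Mki67+ held 226 to 575 CPM in 4 tumours, and Lef1+ Cd8+ cells 115 to 248. The lowest Foxp3+ value lay above the highest of each of these 5 subtypes. The median depth was 983 to 1584 UMIs per Foxp3+ cell and 1134 to 2211 per Gzmb+ Cd8+ cell.

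The Total libraries, which hold other cells of the same tumours, gave the same order for Ass1. T/NK cells with UMIs of CD3 genes and of Foxp3 held 783 CPM in EM3, 770 in E, 675 in the parental tumour, 660 in EM2, 577 in EM1 and 475 in M. Cells with CD3 but no Foxp3 UMI held 147 to 216 CPM. The Foxp3 cells were above the others in each of the 6 tumours, and the ranges over tumours did not overlap. This split rests on 57 to 252 Foxp3 cells per library and was chosen after the CD45 values had been seen.

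Odc1, the polyamine gene, was spread over lymphocytes, dendritic cells and macrophages. Among classes of at least 50 cells in the CD45 libraries, NK cells were highest in E (1079 CPM), EM1 (1052) and EM2 (1229). They held 464 CPM in EM3. T cells were the highest class in EM3, M and the parental tumour. In T cells of the CD45 libraries it stood at 2056 CPM in M, 1034 in EM3, 1024 in EM2, 843 in the parental tumour, 729 in EM1 and 696 in E. M was the highest by a wide margin, at a log2 ratio over E of 1.55 (1.47 to 1.63). The T cell class differs in its subtypes between tumours, with 43 Cd44- Cd4+ cells in M and 407 in E, so the subtypes were read separately. Cd44+ Cd4+ cells, a subtype of activated or memory helper cells, held 2700 CPM in M, 2118 in EM2, 2010 in EM3, 1756 in EM1, 1697 in the parental tumour and 1450 in E. Foxp3+ Cd4+ cells held 2583 in M, 1660 in EM2, 1416 in the parental tumour, 1406 in EM3, 1086 in E and 977 in EM1. M was the highest in both subtypes, and its intervals did not overlap with those of the other 5. Gzmb+ Cd8+ cells held 958 CPM in M and 420 to 651 in the 4 other tumours with at least 20 of them. Cd44- Cd4+ cells differed less, at 691 CPM in M (494 to 941) and 466 in E (414 to 522), with overlapping intervals. In Lef1+ Cd8+ cells the parental tumour was highest at 1083 CPM, with 675 in M and 428 in E. The ratio of the whole class was thus larger than that within any of these 5 subtypes. Granulocytes of the CD45 library of M held 114 CPM, the lowest of the 6 tumours.

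**Figure D2:**
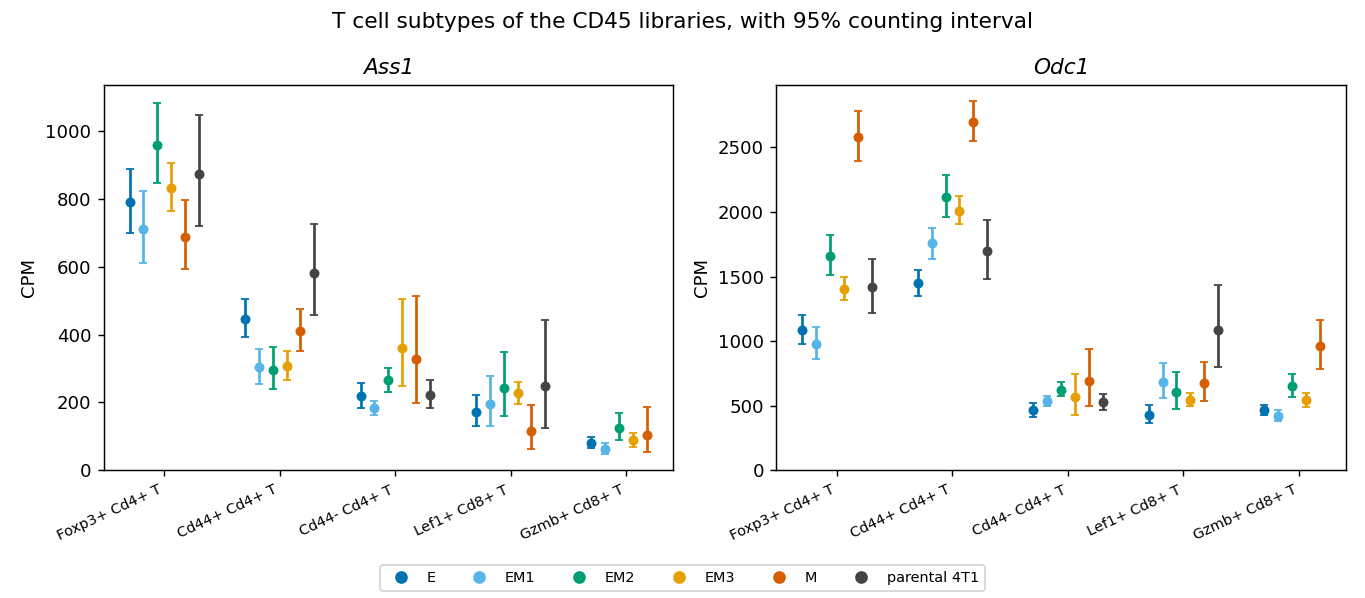
Ass1 and Odc1 in 5 annotated T cell subtypes of the CD45 libraries, as CPM with 95% counting intervals and 1 point per tumour and subtype of at least 20 cells. Ass1 in Foxp3+ Cd4+ cells (689 to 961 CPM) lies above the other subtypes, and Odc1 is highest in M in both Foxp3+ Cd4+ (2583 CPM) and Cd44+ Cd4+ cells (2700 CPM).

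Tumour cells, measured in the Total libraries, were the main source of Odc1 in 5 of 6 tumours. They held 5099 CPM in the parental tumour, 3234 in EM3, 3119 in M, 2311 in EM1, 1714 in EM2 and 1569 in E. In those 5 they gave 77.1% to 93.3% of Odc1 UMIs, beside 39.0% to 74.6% of the UMIs of all genes. In E they gave 29.1%, beside 13.2%. By level the parental tumour was highest and E lowest, and EM3 and M were close to each other. Granulocytes of the same libraries held 1898 CPM in the parental tumour and 396 to 700 in the other 5, with E again lowest, against 114 to 226 in the CD45 libraries. T/NK cells were also highest in the parental tumour, at 2310 CPM, and lowest in E, at 747. Dendritic cells did not have this order, with the highest level in E (1708 CPM) and the lowest in M (643 CPM), and macrophages were lowest in M (337 CPM). The part of free RNA in the Odc1 levels of the Total libraries was not tested, and this limit holds for every Odc1 value of leukocytes in the Total libraries given below.

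Nos2 in tumour cells differed widely between clones and followed the macrophages only in part. In the Total libraries M was lowest in both classes. The log2 ratio of M over E was -2.17 in tumour cells and -1.80 in macrophages, and that of EM3 over E was -2.12 and -1.20. EM2, the highest for tumour cells, held 11.0 CPM in macrophages of its CD45 library against 34.8 in E. Tumour cells held 115 CPM in EM2, 78.5 in E, 45.7 in EM1, 36.2 in the parental tumour, 10.4 in EM3 and 9.70 in M. EM2 was highest, EM3 and M were lowest, and EM2 differed from EM1 with which it shares its barcode set. In EM2, 34.0% of tumour cells had a Nos2 UMI and 389 of 3334 cells had 5 or more, so the transcript was not confined to a few cells. T/NK cells, which are not known for Nos2, held 4.97 CPM in the Total library of EM3 and 7.27 in that of M. The low totals of these tumour cells were unevenly spread. In EM3, 108 of 1968 tumour cells had a Nos2 UMI, with up to 49 in a cell, and the 1% of cells with most held 57.2% of the 304 UMIs. In M, 269 of 4707 had one, 35 cells had 5 or more, and the top 1% held 50.9% of 637 UMIs. Tumour cells gave 90.1% of all Nos2 UMIs of the Total library in EM2, 83.0% in EM1, 82.4% in the parental tumour, 39.1% in M, 26.2% in EM3 and 19.3% in E. Of the UMIs of all genes they held 63.5% in EM2, 71.7% in EM1, 74.6% in the parental tumour, 60.9% in M, 39.0% in EM3 and 13.2% in E. The Nos2 share was thus below the share of all UMIs in M and EM3 and above it in the others.

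Nos2 UMIs were also found in stromal cells. T/NK cells of the Total libraries, set beside them, held 4.97 to 15.1 CPM, with a UMI in 0.789% to 2.26% of cells of 1099 to 2087 UMIs at the median. Endothelial cells held 27.0 to 65.1 CPM in the 4 tumours with at least 50 of them, and 14.8% to 22.8% of them had a Nos2 UMI, beside 3.54% to 9.51% of macrophages in the Total libraries. In fibroblasts that share was 3.70% to 14.3%. Fibroblasts held 114 CPM in EM1, 80.2 in M, 58.8 in the parental tumour, 25.8 in E, 12.2 in EM2 and 7.01 in EM3. The EM2 value lay below the 14.9 CPM of its T/NK cells and the EM3 value, from 5 UMIs, had an interval that overlapped with theirs, so no level above background was detectable in the fibroblasts of these 2 tumours. In endothelial cells the intervals lay above those of T/NK cells in all 4 tumours. The EM1 value rests on 39 UMIs, of which 71.8% came from 1 cell. In M 268 UMIs came from 30 of 261 fibroblasts, and in the parental tumour 233 came from 37 of 259. Ass1 in tumour cells ranged from 46.3 to 94.7 CPM. Odc1 of tumour cells, at 50 CPM or more in every tumour, had a highest over lowest ratio of at least 2-fold, as did 25.1% of 5830 genes there, and Ass1 did not. Arg1 and Nos2 were at 50 CPM or more in tumour cells of only 2 tumours each, so they passed the floor through the tumours where they were high. Their highest over lowest ratios are therefore not set against this share of genes.

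**Figure D3:**
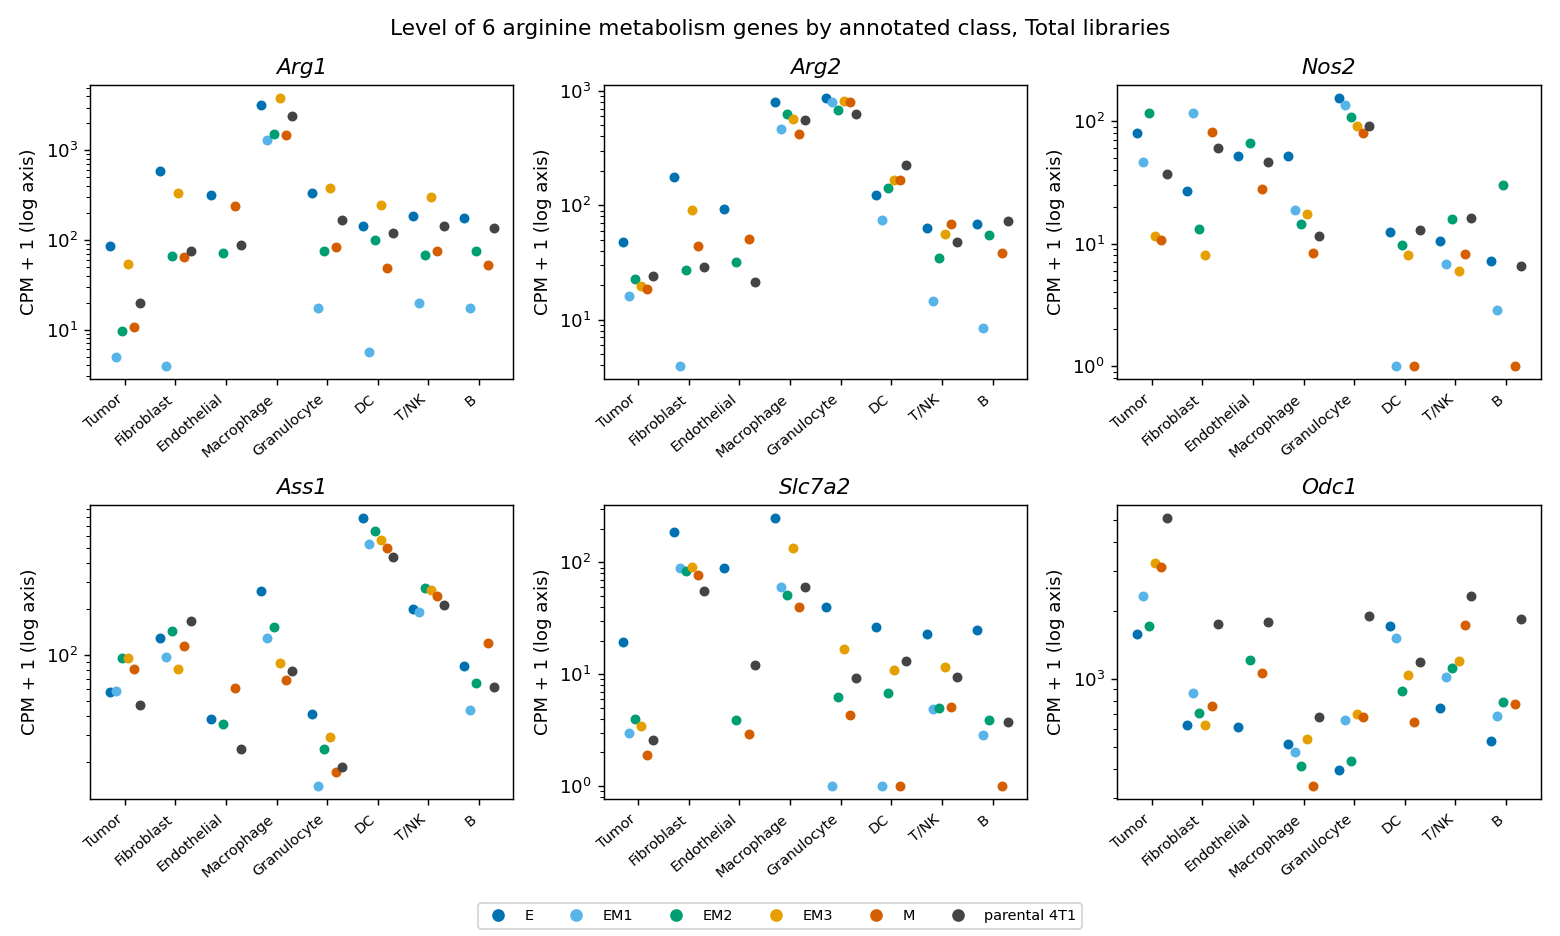
Level of the 6 genes in the annotated classes of the Total libraries, as CPM plus 1 on a log axis, with 1 point per tumour and class of at least 50 cells. Cells annotated as Unknown are not drawn. Odc1 is highest in tumour cells (1714 to 5099 CPM) in every tumour but E, where dendritic cells (1708 CPM) lie above tumour cells (1569 CPM), Nos2 of tumour cells spans 9.70 to 115 CPM, and Slc7a2 appears in macrophages and fibroblasts.

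The macrophages of clone M held less of all 6 genes than those of clone E. The log2 ratio of M over E, on CPM plus a pseudocount of 10, was -1.23 for Arg1 (-1.25 to -1.21), -1.02 for Arg2, -1.40 for Nos2, -1.87 for Ass1, -2.39 for Slc7a2 and -1.18 for Odc1. Nos2 did not reach the floor of 50 CPM in any tumour, so 5 members entered the count over genes, and all 5 lay at -1 or below. Only 3 of the 5 did in the Total libraries, where Arg2 was at -0.92 and Odc1 at -0.59. Slc7a2, at 40.7 CPM in M and 256 in E, passed the floor through E, so nothing is read from its part in the count. The members were chosen with earlier results of these data known, so the shares below are given as a description. Of 4209 genes at 50 CPM or more, 3.49% were that far higher in E, and the median over all of them was 0.17, against -1.23 over the 5 members. For 5 of the 6 genes M was the lowest tumour, the exception being Arg1, which was lowest in EM1. E was the highest tumour for 5 of 6, the exception again being Arg1, which was highest in EM3. Since both choices of tumour bear on 1 animal each, the ratio describes these tumours only.

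Within the barcode set that E and EM3 share, the genes separated. Arg1 differed little, at a log2 ratio of EM3 over E of 0.06 (0.05 to 0.08). Slc7a2 was lower in EM3 by a log2 ratio of -1.04, Ass1 by -1.09, Nos2 by -0.88, Arg2 by -0.42 and Odc1 by -0.35. Of the 5 members counted, 2 lay at -1 or below, beside 0.681% of 3820 genes. Slc7a2 was near that limit and stood at -0.84 in the Total libraries. Ass1 varied more with the setting, at -0.91 as a mean over cells, -0.95 after thinning and -1.485 in the Total libraries. The near match in Arg1 was also limited to the CD45 libraries, since EM3 was above E in the Total libraries at 0.25 (0.24 to 0.27).

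The Total libraries gave a second measure of the same tumours. Macrophages there held 3802 CPM of Arg1 in EM3, 3191 in E, 2416 in the parental tumour, 1514 in EM2, 1500 in M and 1300 in EM1, in nearly the order of the CD45 libraries. Slc7a2 stood at 247 CPM in E and 133 in EM3, against 38.8 to 59.8 in the other 4. Nos2 was 50.8 CPM in E and 7.40 to 17.8 in the other 5. Odc1 differed from the CD45 libraries, with the parental tumour highest at 676 CPM and EM3 over E at 0.07.

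Markers of monocytes also differed between tumours. In the CD45 libraries E was highest and M lowest for these markers, as for Slc7a2, while the tumours between had another order. Arg1 had a different order, with EM3 highest and EM1 lowest. The part of monocytes in the levels of the members was not tested. The summed level of Ly6c2, Plac8, Ccr2 and Chil3 in macrophages was 933 CPM in E, 453 in EM2, 421 in EM3, 314 in the parental tumour, 287 in EM1 and 261 in M. E was also the highest in the Total libraries, but M was not the lowest there. E held 1157 CPM, M 250, EM3 229 and the parental tumour 181. In macrophages with a C1qa UMI and no UMI of Plac8 or Ly6c2, which were 38.0% of those of E and 71.9% of those of M, all 6 genes were again lower in M. The log2 ratio was then -1.27 for Arg1, -0.97 for Arg2, -2.21 for Ass1, -2.56 for Slc7a2, -1.48 for Odc1 and -0.83 for Nos2, the last closer to 0 than over all macrophages. EM3 over E for Nos2 moved from -0.88 to -0.29.

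**Figure D4:**
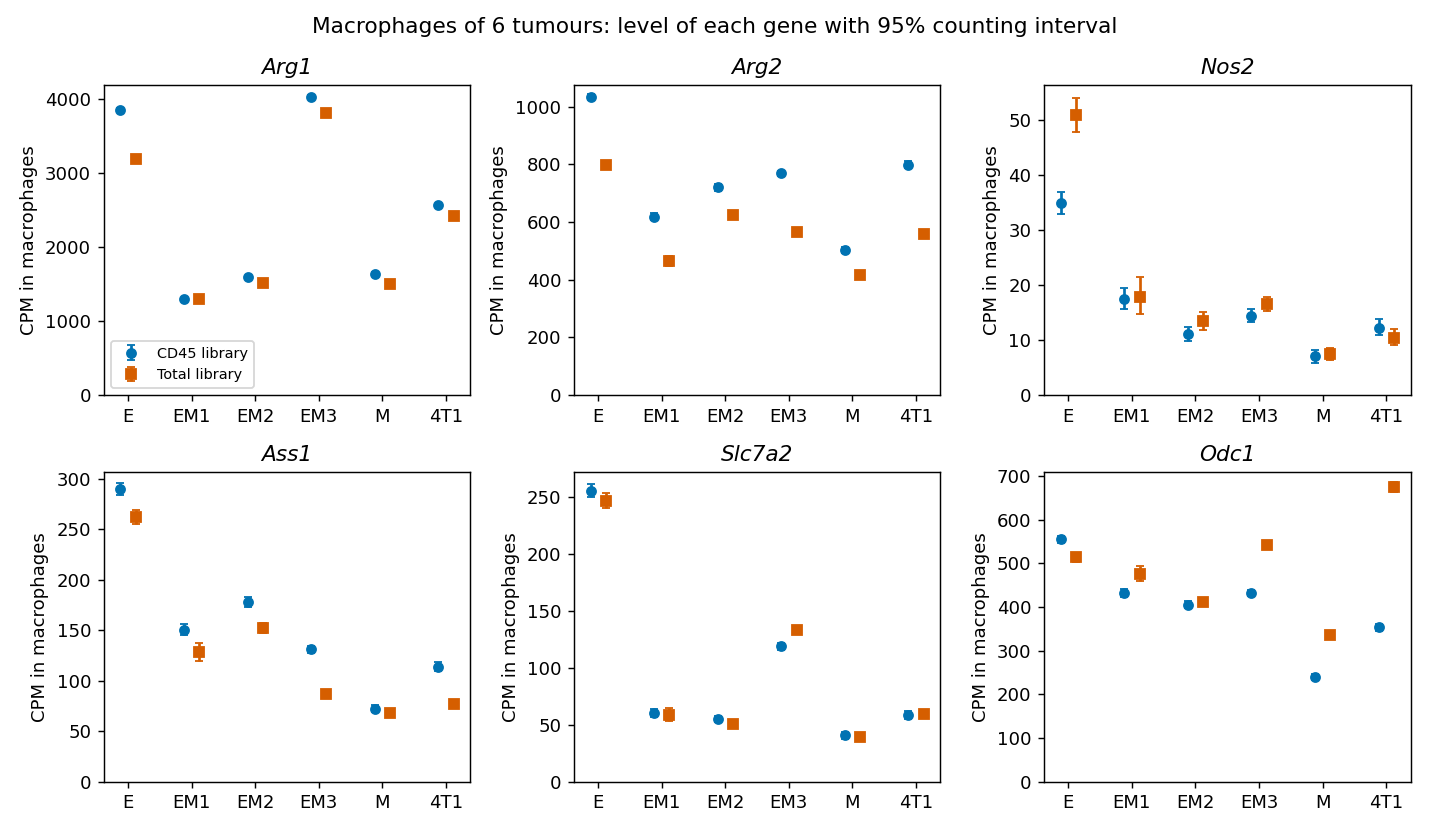
CPM of the 6 genes in macrophages of each tumour, for the CD45 (circles) and Total (squares) libraries, with 95% counting intervals and linear axes from 0. E is highest for Slc7a2 and Nos2 in both libraries, EM3 and E are highest for Arg1, and Odc1 of the parental tumour differs between its libraries (353 and 676 CPM).

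Single macrophages were compared after thinning each to 3000 UMIs, which kept 21099 of 24068 cells of the CD45 libraries and left out 6.70% to 19.7% per tumour. The median macrophage then had 8 Arg1 UMIs in EM3, 7 in E, 4 in the parental tumour, 2 in EM2, 1 in EM1 and 1 in M. The share with any Arg1 UMI was 88.2% in EM3, 81.5% in E, 74.8% in the parental tumour, 63.5% in EM2, 59.8% in M and 52.4% in EM1. Arg1 was uneven within every tumour, as the 10% of macrophages with most Arg1 held 33.4% to 53.1% of its UMIs. The upper end was high even in low tumours, with up to 51 Arg1 UMIs per 3000 in EM1 and up to 120 in E. At 500 UMIs per cell, the share with an Arg1 UMI was 29.8% to 64.4% in macrophages and 3.86% to 18.8% in T cells. Arg2 was more even than Arg1, with its top 10% of cells holding 26.0% to 32.9%.

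Nos2 was sparse, so that its spread over cells cannot be ranked against the other genes. A Nos2 UMI was present in 5.63% of thinned macrophages in E and in 1.50% to 2.60% in the other 5 tumours. Without thinning, the 1% of macrophages with most Nos2 held 44.7% of its UMIs in E and 59.1% to 75% in the other 5 tumours. Cells with 5 or more Nos2 UMIs numbered 70 of 5118 in E and 4 of 2540 in M.

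Macrophages were then grouped by their Arg1 count per 3000 UMIs, as 0, 1 to 4, 5 to 14 and 15 or more. Slc7a2 was higher in the top group than in the group without Arg1 in all 6 tumours. The 2 levels were 137 and 342 CPM in E, 49.1 and 132 in EM3, 44.4 and 162 in EM1, and 30.1 and 70.2 in EM2. M held 11.0 and 201 CPM, and the parental tumour 30.3 and 112. The intervals of the end groups did not overlap in any tumour. Nos2 was also higher at the top end in all 6, with 26.2 against 70.1 CPM in E, 3.55 against 21.5 in M and 3.12 against 34.4 in the parental tumour. In EM3 the Nos2 intervals of the end groups overlapped. In the Total libraries the Nos2 intervals of the end groups did not overlap in E, EM3, M and the parental tumour, with the top group higher. They overlapped in EM2, at 14.4 and 17.6 CPM, and in EM1, at 10.7 and 19.6 CPM with 68 cells in the top group.

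Ass1 and Arg2 did not follow Arg1 in this way. Ass1 was lower in the group with most Arg1 in 5 tumours, at 363 against 237 CPM in E and 259 against 112 in EM3, while EM1 held 151 and 153. Arg2 had no common order. From the group without Arg1 to the top group it stood at 1152 and 1153 CPM in E, 618 and 628 in EM1, 754 and 881 in EM2, 554 and 639 in M, and 862 and 926 in the parental tumour. EM3 went the other way, at 971 and 865 CPM. Over all 4 groups it ranged from 665 to 881 CPM in EM2 and from 765 to 971 in EM3, and in both the intervals of the end values did not overlap. Odc1 had no single order. The macrophages with most Arg1 had lower levels of the antigen presentation gene H2-Aa in every tumour, at 6605 against 9342 CPM in E and 1410 against 4386 in M. Of the 4 monocyte genes, Plac8, Ly6c2 and Ccr2 were lower in all 6, for Plac8 at 362 against 950 CPM in E. The fourth, Chil3, was higher in 5, at 319 against 178 CPM in E and 75.3 against 41.9 in M, and lower in the parental tumour.

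**Figure D5:**
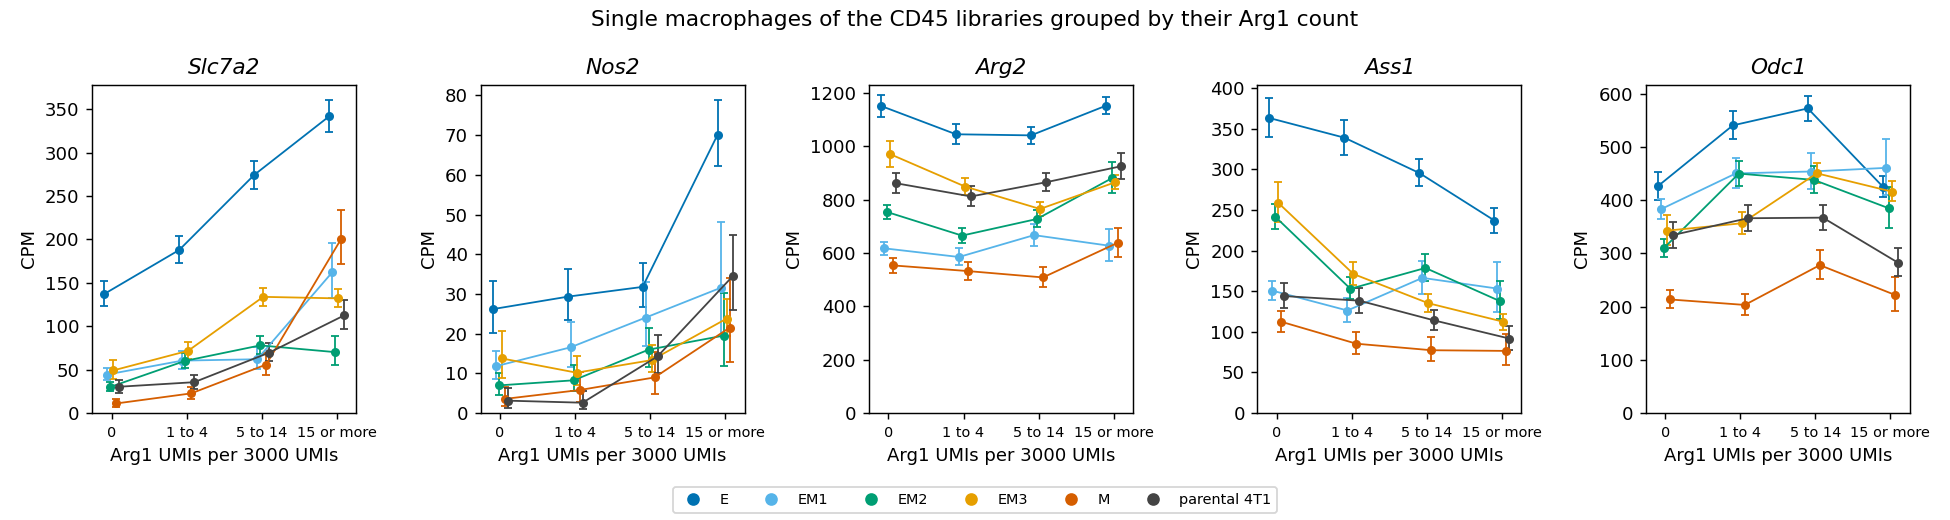
Level (CPM, with 95% counting intervals) of 5 genes in single macrophages of the CD45 libraries grouped by Arg1 UMIs per 3000 UMIs, 1 line per tumour. Slc7a2 and Nos2 are higher at 15 or more than at 0 Arg1 UMIs in each tumour, Ass1 is lower in 5 of 6, and Arg2 has no common order.

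The genes were also read pairwise, as the share of thinned macrophages with both against the product of both shares. Nos2 with Slc7a2 exceeded the product in 6 of 6 tumours, by 1.55 to 5.42 times, and the product lay below the interval each time. In M, this is 13 cells of 2333. Arg1 with Slc7a2 exceeded it by 1.06 to 1.42 times, outside the interval in 5. Arg1 with Nos2 was at 1.03 to 1.34 times the product, and the product was within the interval in all 6. Macrophages with a Nos2 UMI were thus not short of Arg1. Ass1 with Odc1 was at 0.807 to 0.962, below the product in all 6 and outside the interval in 4.

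The genes whose levels went most with Arg1 over single macrophages were Fn1 (mean r 0.44 over the 6 CD45 libraries), Hilpda (0.31), Pdpn (0.31), Ccl6 (0.30) and Cxcl14 (0.28), among 7381 genes present in at least 5% of macrophages of each library. Fn1 encodes fibronectin, Hilpda a lipid droplet protein induced under low oxygen, Pdpn podoplanin, and Ccl6 and Cxcl14 chemokines. Of the other members Slc7a2 came next to Arg1 at 0.18, rank 36, while Ass1 was at -0.09. For Nos2, which is sparse, the leading genes Ero1l, Ndrg1, Mmp12, Txnip and Grina had mean r of 0.14 to 0.22, too weak to be read further. Slc7a2 ranked 8 of 7381 for Nos2. All of these share cells and depth within a library and are given as descriptions.

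A list of 60 further genes of arginine transport, the urea cycle, nitric oxide, polyamines, proline and creatine synthesis, and of the regulators of Arg1 and Nos2, was followed in macrophages. Of these, 30 reached 50 CPM in a tumour, and M over E was at 1 or above in 1 and at -1 or below in 1. Over all genes 3.23% were that far higher in M and 3.49% higher in E, or 6.72% in all. Slc7a7, the light chain of an exchanger of cationic amino acids, was higher in M at 1.22 (101 CPM against 37.8 in E), and the inflammatory regulator Nfkb1 was lower at -1.02. Slc7a7 was below 50 CPM in E and passed the floor through M, where it was high, so nothing is read from its part in the count. In EM3 over E none of the 30 was past 1 either way, beside 0.602% of all genes higher in EM3 and 0.681% higher in E, or 1.28% in all. The median of the 30 was -0.10 for M over E, against 0.17 over all genes.

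Over the 6 tumours, 4 of the 30 had a highest over lowest ratio of at least 2-fold, and all 5 counted members did, beside 10.2% of all 4356 genes. Among the 4 were the interferon response gene Irf1 (log2 of 1.87, highest in EM1), Slc7a7 and Nfkb1. Irf1, Slc7a7 and the member Slc7a2 were below 50 CPM in their lowest tumours (the parental tumour, E and M). They passed the floor through tumours where they were high, so nothing is read from their part in these counts. Below 2-fold came Irf8 (0.95), Cebpb (0.95), Ifngr2 (0.91), Hif1a (0.85), Tlr4 (0.79) and Ifngr1 (0.75). Cebpb, a known activator of Arg1 transcription, was highest in E and EM3, at 6774 and 6332 CPM against 3512 to 4676 in the rest. These are the tumours with most Arg1, and they also share a barcode set. The other regulators of the list did not all have this order. Irf1, a known activator of Nos2, stood at 26.9 CPM in the parental tumour, 39.1 in E, 45.7 in M, 67.6 in EM3, 86.8 in EM2 and 125 in EM1. E, the tumour with most Nos2 in macrophages, was thus among the lower ones for Irf1, while EM1 was second for Nos2 and highest for Irf1. Whether Cebpb bears on Arg1, or Irf1 on Nos2, was not tested. Slc7a3, Nos1 and Nos3 of the list were not among the genes counted in the CD45 libraries, so they have no level here.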

How the data were processed

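The deposited values are unnormalized UMI counts for each gene in each cell. Per the submitters' processing notes, Cell Ranger and the mm10 build were used by the authors. Versions and cell filters are not given in the sources used here, and the labels name both a fixed-RNA kit and 3′ reagents. Cell classes are the authors' deposited annotation. The members and gene lists were chosen with earlier results of these data known. Doublets were called with scanpy 1.11.5 by Scrublet, with a single score limit set after its valleys were seen, and 1.85% of 115612 cells were left out. Counts were summed per class and library and scaled to CPM with Python 3.11.15, numpy 2.4.6 and scipy 1.17.1. Sums have exact Poisson and shares exact Clopper-Pearson 95% intervals, and ratios used a pseudocount of 10 CPM, with genes counted at 50 CPM or more. The calculation was tested on simulated counts. The text names the 6 members, the 10 list genes with the largest ratio between tumours, of which 1 is not reported here, and the 5 genes most like Arg1 and Nos2. Up to 189 whole barcodes were shared between libraries of different barcode sets.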

Additional observations from a re-analysis of the deposited data

Results flagged for a closer look

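In 5 cases M over E was at a log2 ratio of at least 1 in 1 cell class and at -1 or below in another of the same libraries, and none of these differences was tested. Opposite signs with 1 ratio nearer to 0 were more common, as for Ass1 in T cells (0.55) and macrophages (-1.87) of the CD45 libraries, and in tumour cells (0.44) and macrophages (-1.81) of the Total libraries. Odc1 in the CD45 libraries was higher in M in T cells, at a log2 ratio of 1.55, and lower in macrophages, at -1.18. In the Total libraries Odc1 was higher in M in T/NK cells, at 1.19, and lower in dendritic cells, at -1.40, while in the CD45 libraries dendritic cells were at -0.03. The part of free RNA in these Odc1 values of the Total libraries was not tested. Nos2 in the Total libraries was higher in M in fibroblasts, at 1.33, and lower in macrophages at -1.80, in tumour cells at -2.17 and in dendritic cells at -1.10. The fibroblast value rests on 18 Nos2 UMIs in E and 268 in M. No Nos2 UMI was found in the dendritic cells of M, so the value of -1.10 depends on the pseudocount.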

How the results depend on the processing

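With 1 tumour per group, no setting leaves out a replicate, and intervals do not cover the spread between tumours. No paired analysis was possible because every group holds 1 tumour, so tumours cannot be paired across groups. Cell classes of the same tumour can be paired, but they were annotated or split on these same cells, so their differences are given as counts of tumours, with no test. Each log2 ratio was recomputed under 9 alternatives, 1 of them added after the data had been seen, and M over E stayed below 0 for all 6 genes. For Arg1 M over E, -1.23 became -1.08 in the Total libraries, -1.38 with median-of-ratios size factors, -1.04 as a mean over cells, -1.25 with the reference-based labels, -1.09 after thinning and -1.27 in macrophages with C1qa and without Plac8 or Ly6c2. For Nos2 M over E, -1.40 became -1.80 in the Total libraries, -2.17 with a pseudocount of 1, -1.57 after thinning and -0.83 in the macrophages with C1qa and without Plac8 or Ly6c2. For Arg1 EM3 over E, 0.06 became 0.25 in the Total libraries, 0.00 with size factors and 0.13 in those C1qa macrophages. For Nos2 EM3 over E, -0.88 became -1.20 in the Total libraries, -1.22 with a pseudocount of 1, -0.99 after thinning and -0.29 in those C1qa macrophages. Odc1 EM3 over E turned from -0.35 to 0.07 in the Total libraries, and the cause was not tested. The depth limits Nos2 most, as a macrophage held 0.0547 to 0.238 Nos2 UMIs on average.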

Other observations

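Dendritic cells of the CD45 libraries were split by Ccr7 and Fscn1, genes of mature migrating dendritic cells, after the class levels had been seen. Odc1 was lower in cells with UMIs of both than in cells without Ccr7, at 276 against 799 CPM in E, 190 against 795 in EM2, 200 against 544 in EM3 and 172 against 711 in the parental tumour. These 4 tumours had at least 20 cells of each kind, and the counting intervals did not overlap in any. In the Total libraries the same held in E, at 475 against 2230 CPM, and in EM2, at 304 against 817, but EM3 went the other way, at 1050 against 698. Ass1 was higher in cells with UMIs of both in the CD45 libraries of E, at 753 against 424 CPM, and EM3, at 525 against 223. In these libraries the cells without Ccr7 also held more Arg1, at 1678 against 211 CPM in E and 2003 against 588 in EM3, and more Slc7a2, and the part of macrophage RNA in the split was not tested. Ass1 stood at 316 against 454 in EM2, where Arg1 was 253 and 249, with overlapping intervals, and was close in the parental tumour, at 239 against 244. The 3 Total libraries with both kinds held 818 against 291 CPM of Ass1 in EM3, 796 against 550 in EM2 and 599.6 against 505 in E, the last 2 with overlapping intervals.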
